A study of Mus musculus with 10 samples.

Results

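Distal chromosome 14 was described here as 216 protein-coding genes of 55486 genes in the count table. They start at base 50000000 of mouse chromosome 14 (build GRCm38) or beyond it and had at least 1 CPM (counts scaled to 1000000 per library) in 2 or more of 4 tumor libraries. Of 461 protein-coding genes in that stretch, 218 reached this level, and 2 of these were left out because they belong to a list of 5 genes set aside by name. The stretch was picked because RNA from it was lower in tumor line 10-SJK-221 than in tumor line 13-MCB-17. The line difference is therefore given as a description, without a test, and the gene list offers no independent evidence for its direction. At the position limit, Naa30 (start 49172226) was the last gene outside and Ttc5 (start 50765415) the first inside. At the level limit, the second-highest tumor library had 1.08 CPM for Dmtn inside and 0.97 CPM for Slc7a7 outside.

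The study grew normal mammary fibroblasts (NFs) together with or apart from tumor cells of mouse invasive lobular carcinoma lines in 5 gels for 7 days, sorted the cells and sequenced RNA of 10 libraries. Both tumor lines carry WapCre, a Cre recombinase driven by a milk protein promoter active in mammary epithelium, and the conditional allele Cdh1F/F. Line 13-MCB-17 was grown alone in gel 2 and with NFs in gel 4, and line 10-SJK-221 was grown alone in gel 3 and with NFs in gel 5, with 1 library for each. NFs came from mTmG reporter mice and were separated into CD26− cells and CD26+ cells, the latter exposed to an adenovirus carrying Cre, with 1 library of each from gel 1 (NFs alone), gel 4 and gel 5. Each combination of line and culture is thus represented by 1 library. The p-values further down measure the spread between these libraries and not between animals. For the tumor co-culture response, this spread is how far the lines differ in their response, since no combination has a second library.

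The libraries held 14142334 to 18408940 counts. The summed level of 8 epithelial markers was 3840 to 4850 CPM in tumor libraries and 0.211 to 232 CPM in NF libraries, and none of the 8 was at 0 in a tumor library. The summed level of 8 fibroblast markers was 38.7 to 177 CPM in tumor libraries against 23300 to 74800 CPM in NF libraries. Cdh1, the gene with the conditional allele, had 239 and 144 CPM in 13-MCB-17 (alone and co-culture), 269 and 140 CPM in 10-SJK-221 and 0 to 5.23 CPM in NFs, and counts per gene do not show whether its deleted exons were absent. Of 5 immune markers, Cd68 accounted for most of the summed level in each tumor library (299 and 80.5 CPM in 13-MCB-17, 93.1 and 34.8 CPM in 10-SJK-221), whereas Ptprc, a defining leukocyte gene, did not exceed 0.127 CPM in them.

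The number of copies of a chromosome segment sets the dose of every gene on it at once, and in tumor cells the amount of RNA from most genes tends to follow that dose. Single genes can depart from it where a feedback on RNA level, another regulator or the silencing of a remaining copy acts on them. DNA copy number was not measured in these samples, so the values below are RNA levels and say nothing directly on the number of copies. In bulk RNA, fewer cells that express a gene and less RNA per cell cannot be told apart.

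The 250 bases before the RefSeq start of 5 members (build GRCm38.p6) are shown because these genes stand for the patterns below. Itm2b (chr14:73385290-73385539, minus strand) had the common line difference. Ajuba (chr14:54577662-54577911, minus strand) and Mtrf1 (chr14:79397522-79397771, plus strand) had a larger one. Ttc5 (chr14:50785521-50785770, minus strand) had almost none, and Kctd12 (chr14:102982638-102982887, minus strand) had the opposite one. All are written 5′ to 3′ in the direction of the gene, and capitals mark the TATA box (letters TATAAA), the CCAAT motif and the GC box (letters GGGCGG) on either strand, where runs of capitals can join neighboring matches.
Itm2b: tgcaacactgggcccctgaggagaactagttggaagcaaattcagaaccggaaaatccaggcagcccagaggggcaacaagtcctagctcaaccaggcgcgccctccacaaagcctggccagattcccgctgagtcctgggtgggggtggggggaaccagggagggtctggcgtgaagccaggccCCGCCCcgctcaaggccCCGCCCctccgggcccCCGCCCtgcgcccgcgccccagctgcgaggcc
Ajuba: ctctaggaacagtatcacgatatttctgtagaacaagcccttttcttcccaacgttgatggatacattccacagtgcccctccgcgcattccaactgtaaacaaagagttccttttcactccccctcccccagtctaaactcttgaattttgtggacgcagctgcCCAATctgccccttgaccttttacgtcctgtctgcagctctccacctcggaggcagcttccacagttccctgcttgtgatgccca
Mtrf1: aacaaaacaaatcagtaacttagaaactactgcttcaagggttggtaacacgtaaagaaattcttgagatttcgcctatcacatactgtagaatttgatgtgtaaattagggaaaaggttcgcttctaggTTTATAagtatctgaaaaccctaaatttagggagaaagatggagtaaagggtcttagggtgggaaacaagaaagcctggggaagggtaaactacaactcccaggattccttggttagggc
Ttc5: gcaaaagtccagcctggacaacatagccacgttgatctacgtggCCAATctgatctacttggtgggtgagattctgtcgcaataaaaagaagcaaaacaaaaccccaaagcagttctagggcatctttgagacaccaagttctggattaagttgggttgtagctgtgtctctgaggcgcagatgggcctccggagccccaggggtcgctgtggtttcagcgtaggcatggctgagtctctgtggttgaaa
Kctd12: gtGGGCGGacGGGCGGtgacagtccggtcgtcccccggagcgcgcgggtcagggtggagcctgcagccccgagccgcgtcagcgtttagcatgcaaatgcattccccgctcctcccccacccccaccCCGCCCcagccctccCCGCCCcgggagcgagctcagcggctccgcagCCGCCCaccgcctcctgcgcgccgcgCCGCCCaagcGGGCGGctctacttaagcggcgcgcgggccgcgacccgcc

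Among these 5 windows, that of Kctd12 was richest in G and C (77.6%) and held 7 GC boxes, and that of Mtrf1 was poorest (39.2%) and held a TATA box and no GC box. Of the 216 members, 143 matched a promoter entry, and the median G and C content of their 250 bases was 59.2%, against 52% over 27025 genes of the same table. A GC box stood in 60.1% of the members' windows and 32.9% of all windows, a CCAAT motif in 39.9% and 34.5%, and a TATA box in 5.6% and 13%. The table includes many genes that these cells do not express, so the members and all genes differ in more than position. By the classes defined below, a GC box was found in 66 of 101 members that followed the shift (65.3%), 2 of 8 that exceeded it, 9 of 17 that escaped it and 9 of 17 that were mixed. A CCAAT motif stood in 39, 7, 5 and 6 of these, and a TATA box in 5, 2, 0 and 1. These matches describe letters in a window and do not mark sites in use.

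The median fitted log2 difference of 10-SJK-221 minus 13-MCB-17 over the 216 members was −0.94, with quartiles of −1.13 and −0.69, so the median member had 52% of the 13-MCB-17 level in 10-SJK-221. It was −0.94 between the gels with tumor cells alone and −0.95 between the co-culture gels. In all, 205 members (94.9%) were lower in 10-SJK-221, 196 of them in both cultures. Of 11019 genes on other chromosomes, 49.4% were lower and 35.7% were lower in both cultures. In 174 members both 10-SJK-221 libraries had fewer CPM than both 13-MCB-17 libraries, where 15.1% of 13197 genes tested had that order, and in 4 members both had more, where 26.7% of genes did. These counts come from the contrast that chose the stretch and nothing is read from them. The members took 1.81% and 1.8% of all counts in 13-MCB-17 (alone and co-culture) and 0.907% and 0.923% in 10-SJK-221, against 1.4% to 1.62% in the NF libraries.

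The difference belonged to the distal stretch and not to the whole of chromosome 14. For 147 genes of proximal chromosome 14 at the same level the median was 0.05, and over 11019 genes on other chromosomes it was 0, with chromosome medians from −0.05 to 0.04. The interquartile range of the members was 0.44, against 0.39 for proximal chromosome 14 and 0.43 for the other chromosomes. In windows of 10 Mb with at least 10 such genes, all 5 distal windows had medians from −1.02 to −0.88. None of the other 241 windows was at or under −0.5, the lowest being −0.34. Of these, 1 lay above 0.5, at the start of chromosome 6 (1.91, 19 genes). The shift was of like size in the windows from 50 to 80 Mb, which hold 83, 47 and 49 genes at this level, and in the last, from 120 to 130 Mb, which holds 12.

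**Figure D1:**
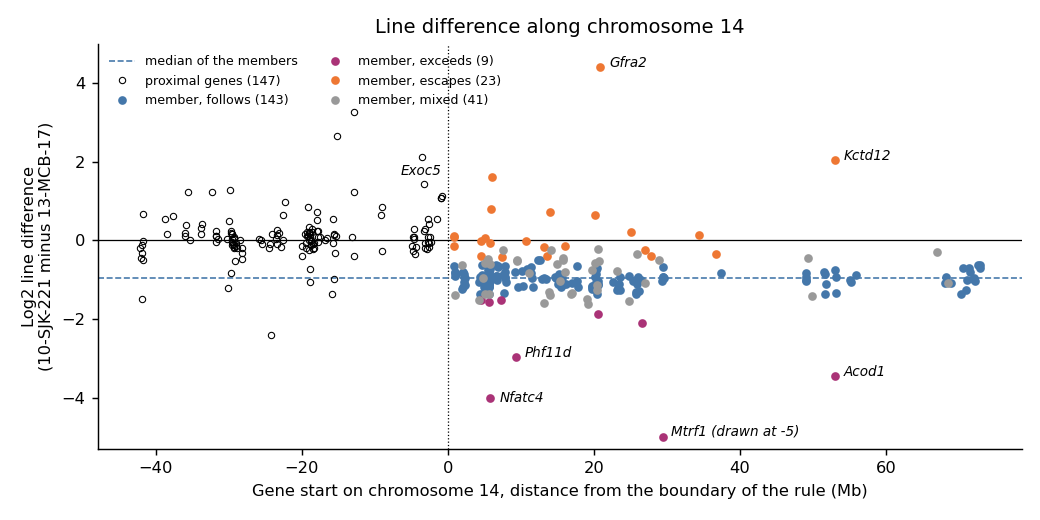
Fitted log2 line difference (10-SJK-221 minus 13-MCB-17, y axis) of chromosome 14 genes by the distance of their start from the boundary of the rule (x axis, Mb). Open circles are 147 proximal genes and filled circles the 216 members by class, and the dashed line at −0.94 is the members' median. Mtrf1, with 0 counts in 10-SJK-221, is drawn at −5. Most members lie near the dashed line from start to end, while proximal genes lie around 0.

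**Figure D2:**
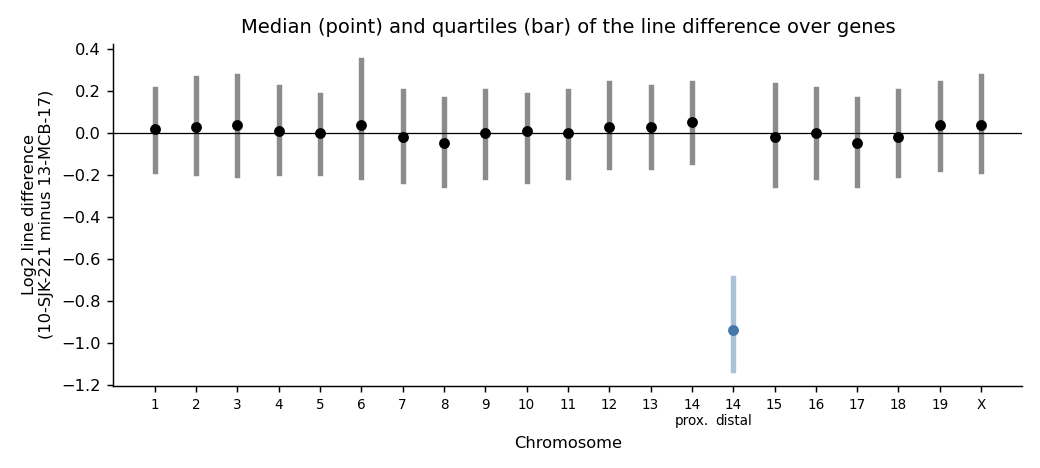
Median (point) and quartiles (bar) of the fitted log2 line difference over genes of each chromosome, with chromosome 14 divided into its proximal genes and the 216 members. Only the members' median, −0.94, lies away from 0.

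The genes at the start of the stretch did not share the difference. Outside it, Exoc5, a subunit of the exocyst that tethers secretory vesicles, had 54.4 and 59.2 CPM in 13-MCB-17 (alone and co-culture) and 121 and 131 CPM in 10-SJK-221. Its neighbors Ap5m1 and Naa30, the catalytic subunit of an N-terminal acetyltransferase, were also higher in 10-SJK-221, by 1.07 and 1.13 on the log2 scale. All 3 were thus higher in both cultures. The first 3 members differed little. Ttc5 had 29.8 and 29.6 CPM in 13-MCB-17 and 31.2 and 25.7 CPM in 10-SJK-221, and Parp2, an enzyme that marks DNA breaks with ADP-ribose, had 18.4 and 25.7 CPM against 21.3 and 27.9 CPM. In both genes the lines overlapped. Ccnb1ip1, which lies between them, was low (1.24 to 2.06 CPM in all 4 libraries). Tep1, a telomerase-associated protein whose start (50824059) follows the end of Parp2 (50821301) directly among expressed genes, had 84.5 and 94.3 CPM against 56.2 and 63.3 CPM. From Tep1 on, 4 of the next 5 genes (Tep1, Osgep, Apex1 and Pnp) fell in the class that follows the shift. The exons of Apex1 overlap those of Pip4p1, which was mixed, so their counts are uncertain if strand was not used in counting. These genes were named for their place and not for their values.

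To sort the members, the log2 line difference was taken in each culture and divided by the shift of −0.94. A member follows the shift where this ratio lay between 0.5 and 1.5 in both cultures, exceeds it above 1.5 in both, escapes it below 0.5 or on the opposite side in both, and is mixed otherwise. By this rule 143 members (66.2%) followed the shift, 9 exceeded it, 23 escaped it and 41 were mixed. Of 11019 genes on other chromosomes, 3.52% fell in the band of the followers, 1.31% in that of the exceeders and 83.3% in that of the escapers. The median level was 30.4 CPM in followers, 2.61 CPM in exceeders, 8.08 CPM in escapers and 20.8 CPM in mixed members. Among 162 members with a mean of at least 10 CPM, 124 followed, 3 exceeded, 9 escaped and 26 were mixed. Sorted anew by their own median of −0.96, 126 followed, 3 exceeded, 10 escaped and 23 were mixed.

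**Figure D3:**
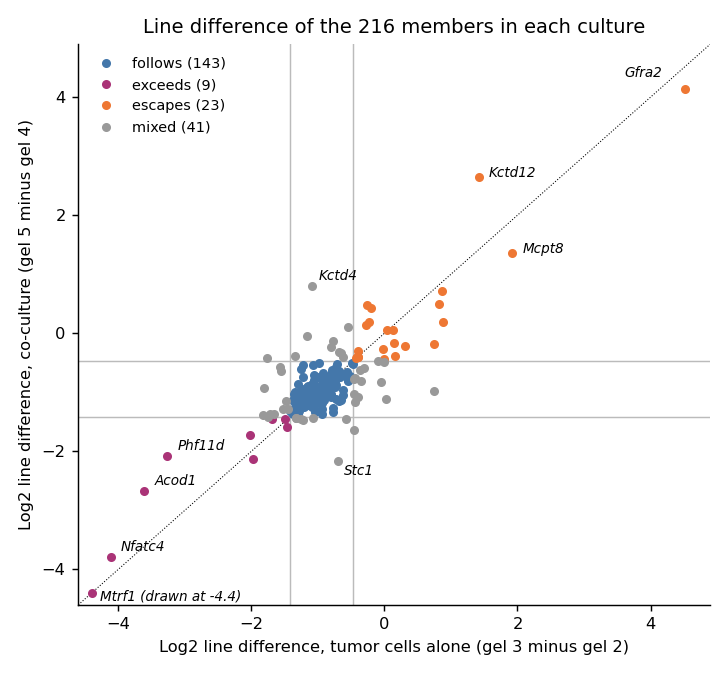
Log2 line difference of the 216 members between the gels with tumor cells alone (x axis) and between the co-culture gels (y axis), colored by class. Gray lines mark 0.5 and 1.5 times the shift and the dotted line marks equal values. Mtrf1 is drawn at −4.4. The 143 followers form 1 cloud, with Gfra2, Kctd12 and Mcpt8 far on the opposite side and Nfatc4, Acod1 and Phf11d far beyond.

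Tpt1, the translationally controlled tumor protein, had 2170 and 2000 CPM in 13-MCB-17 (alone and co-culture) and 1134 and 1098 CPM in 10-SJK-221. Per kb of exon it was the highest of all members, with a mean of 672 CPM per kb over the tumor libraries. Ipo5, which carries proteins into the nucleus, had 927 and 496 CPM against 387 and 228 CPM. The lines did not overlap in either gene, and both cultures gave a like difference (−1.02 and −0.93 for Tpt1, −1.35 and −1.19 for Ipo5).

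Tsc22d1, a transcriptional regulator of the leucine zipper type, had 608 and 556 CPM against 330 and 277 CPM. Itm2b, a membrane protein whose promoter is shown above, had 540 and 432 CPM against 251 and 222 CPM. Hnrnpc, which binds nascent pre-mRNA, had 452 and 425 CPM against 268 and 261 CPM, with a line difference of −0.84 alone and −0.77 in co-culture. Fndc3a, a protein with fibronectin type III domains, had 282 and 451 CPM against 175 and 186 CPM. In all 6 genes both 10-SJK-221 libraries were below both 13-MCB-17 libraries.

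**Figure D4:**
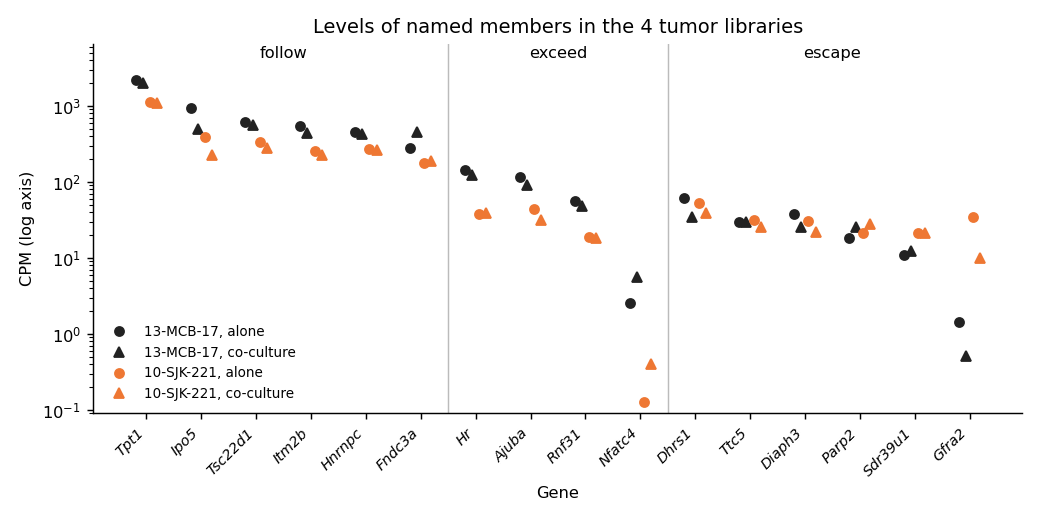
CPM (log axis) of 16 named members in the 4 tumor libraries. Circles are tumor cells alone and triangles co-culture, black is 13-MCB-17 and orange 10-SJK-221, and vertical lines separate members that follow, exceed and escape the shift. Orange lies below black in the first 10 genes, whereas in Gfra2 it lies far above.

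Of the 9 members that exceeded the shift, Hr, Ajuba and Rnf31 had the highest levels. Hr, a corepressor of nuclear receptors, had 145 and 122 CPM in 13-MCB-17 and 38 and 38.7 CPM in 10-SJK-221, or 27.4% of the 13-MCB-17 level in the fit. Ajuba, a LIM protein of cell junctions and Hippo signaling, had 115 and 90.6 CPM against 44.5 and 31.5 CPM. Rnf31, the catalytic subunit of the linear ubiquitin ligase LUBAC, had 56.5 and 47.7 CPM against 18.5 and 18.2 CPM. These 3 differed by −1.52 to −1.87 on the log2 scale, not far beyond the limit of the class. They stand apart from the remaining 6, which were low.

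Nfatc4, a calcium-regulated transcription factor, had 47 and 100 counts in 13-MCB-17 (2.55 and 5.66 CPM) and 2 and 7 counts in 10-SJK-221. NFs alone had a mean of 172 CPM of Nfatc4. Acod1, which makes itaconate in activated macrophages, had 154 and 21 counts against 11 and 3 counts, and Phf11d had 153 and 22 counts against 14 and 5 counts. Of the macrophage markers on the immune list, Cd68 was also higher in 13-MCB-17 in both cultures (given above), whereas Csf1r was lower there (1.79 and 11.6 CPM against 7.25 and 12.9 CPM). The part of macrophage RNA in these values was not tested. Acod1 had 0 counts in both NF libraries of gel 1. Phf11d belongs to a cluster of close paralogs, among which reads can be shared.

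Mtrf1, a mitochondrial peptide chain release factor, had 48 and 45 counts in 13-MCB-17 and 0 counts in both libraries of 10-SJK-221. Taking 3 counts per library as the largest number that a count of 0 allows (a mean of 0.181 CPM), it was at least 14.2-fold lower in 10-SJK-221, for counting error only. The NF libraries held 13 to 75 counts of Mtrf1. No other member had 3 or fewer counts in both libraries of a line. Serp2 (1.74 and 2.49 CPM against 0.445 and 0.57 CPM) and Cryl1 (1.41 and 1.98 CPM against 0.509 and 0.741 CPM) completed the class. These last 3 genes were named after their values were seen.

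Among the 23 escapers, 8 were higher in 10-SJK-221 in both cultures, which is 3.7% of members against 36.4% of the 11019 genes on other chromosomes. Gfra2, the receptor for the growth factor neurturin, had 26 and 9 counts in 13-MCB-17 (1.41 and 0.509 CPM) and 549 and 173 counts in 10-SJK-221 (34.9 and 9.87 CPM), a fitted difference of 4.42 on the log2 scale or 21.5-fold. In gel 3, which held no NFs, it was higher than in gel 5, which held them. Kctd12, an auxiliary subunit of GABA-B receptors, had 29 and 21 counts against 71 and 139 counts, and NFs alone had a mean of 85.4 CPM. Mcpt8, a mast cell protease of basophils, had 20 and 45 counts against 70 and 121 counts. Mcpt8 was higher in co-cultured NFs (36.1 to 231 CPM) than in any tumor library, and the part of NF RNA in the tumor co-culture values was not tested. In the gels without NFs, both genes were also higher in 10-SJK-221. For their line difference, Kctd12 and Mcpt8 fall outside the rule for named genes and were named after their values were seen.

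Sdr39u1, a short-chain dehydrogenase, had 10.9 and 12.4 CPM against 21 and 21.4 CPM, a difference of 0.79 on the log2 scale. Of its exon bases, 48.4% overlap those of Khnyn, which followed the shift. Sorbs3, the adhesion protein vinexin, had 3.58 and 6.96 CPM against 6.74 and 10.2 CPM, and NFs alone had a mean of 49.3 CPM. In Sdr39u1 the lines did not overlap, whereas in Sorbs3 the co-cultured 13-MCB-17 library exceeded the 10-SJK-221 library grown alone.

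Sox7, a further member, had a fitted difference of 0.734 and was named after its value was seen. The escapers described next were near 0 or little lower. Dhrs1, a short-chain dehydrogenase of the endoplasmic reticulum, had 60.8 and 34.2 CPM against 53.4 and 39.4 CPM, so the lines overlapped. Diaph3, a formin that nucleates actin filaments, had 37.6 and 25.5 CPM against 30.5 and 21.6 CPM. Rem2, a small GTPase of the RGK family, had 22.6 and 34.3 CPM against 18 and 27.1 CPM, and Mtmr9, an inactive lipid phosphatase, had 23.2 and 24.3 CPM against 18.8 and 19.1 CPM. In Diaph3 and Rem2 the lines overlapped, and in Mtmr9 they did not. These 3 had 75.4% to 78.7% of the 13-MCB-17 level in 10-SJK-221, near the limit between escaping and following. Over 10% of exon bases overlapped another gene in 3 of 23 escapers, 0 of 9 exceeders and 26 of 143 followers.

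Members were next grouped by role, using 8 lists of 162 genes in all, of which 116 are members. Among 17 members for DNA repair and chromatin, 12 followed the shift, with a median difference of −0.81. Supt16, a subunit of the histone chaperone FACT, had 114 and 107 CPM in 13-MCB-17 against 63 and 59.5 CPM in 10-SJK-221. Prmt5, an arginine methyltransferase, had 52.8 and 61.8 CPM against 27.2 and 32.6 CPM. Parp2 and Neil2 were the 2 escapers of the list.

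Of 14 members for cell cycle and cell death, 9 followed, 1 escaped and 4 were mixed, with a median of −1.01. Rb1, the retinoblastoma tumor suppressor, had 52.8 and 46.2 CPM against 21.6 and 22 CPM. Tnfrsf10b, a receptor for the death ligand TRAIL, had 137 and 105 CPM against 58.1 and 49.1 CPM, and Bnip3l, a mitophagy receptor, had 391 and 422 CPM against 178 and 159 CPM. All 3 were lower in 10-SJK-221 by more than the median member (−1.25, −1.24 and −1.34 on the log2 scale). They stand near the low end of the list, which ranged from −1.34 to −0.35. Part of the Rb1 exons (14.9% of bases) overlaps other genes.

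Of 18 listed transcription factors, 7 were members, of which 4 followed and 3 were mixed. Elf1, of the ETS family, had 92 and 92.8 CPM against 50.8 and 52 CPM. Klf5, an epithelial zinc finger factor, had 200 and 127 CPM against 124 and 121 CPM, so that the line difference was −0.77 alone and −0.13 in co-culture. Klf12, of the same family, differed by −1.53 and −1.29.

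Of 13 members for protein turnover and folding, 11 followed and 2 were mixed, with a median of −1.08 and a range of −1.58 to −0.72. Psme1 and Psme2, the 2 subunits of the proteasome activator PA28, had nearly the same difference (−1.19 and −1.17), with 91.6 and 124 CPM against 43.9 and 55.6 CPM for Psme1. Ctsb, the lysosomal protease cathepsin B, had 1230 and 1106 CPM against 390 and 434 CPM and was mixed, since its ratio to the shift passed 1.5 in the gels with tumor cells alone only. Part of its exons (12.8% of bases) overlaps Fdft1.

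Of 20 members for nuclear transport, RNA processing and translation, 17 followed, with a median of −0.9. Kpna3, an importin alpha, had 130 and 121 CPM against 80.3 and 69.4 CPM. Xpo7, an export receptor, had 91.9 and 79.9 CPM against 63.2 and 63 CPM and was mixed. Of 20 members for metabolism and mitochondria, 11 followed, 2 exceeded, 2 escaped and 5 were mixed, with a median of −0.89. Slc25a37 (mitoferrin-1, which brings iron into mitochondria) had 525 and 390 CPM against 157 and 156 CPM. Esd, the hydrolase of S-formylglutathione, had 1003 and 363 CPM against 324 and 147 CPM. Both were mixed at the upper limit, with fitted differences of −1.6 and −1.55. Fdft1 (squalene synthase) and Sucla2 (a subunit of succinyl-CoA synthetase) followed, at −0.94 and −0.92.

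Of 15 members for cytoskeleton, adhesion and junctions, 9 followed, with a median of −1.06. Dock5, a guanine nucleotide exchange factor for Rac, had 314 and 182 CPM against 132 and 93.4 CPM. Of 10 members for signaling and secreted proteins, 6 followed, 1 escaped (Gfra2) and 3 were mixed, with a median of −1.03. Bmp1, which cleaves procollagen, had 184 and 647 CPM against 92.5 and 250 CPM. Stc1 (stanniocalcin-1) differed by −0.7 alone and −2.16 in co-culture. The follower share was thus highest in the lists for nuclear transport and protein turnover, which describes these lists only.

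Genes in the stretch that do not code for protein were no members and were described by the same fit. Of 15 at the same level, 13 were lower in 10-SJK-221, with a median of −0.54 and quartiles of −1.02 and −0.3. On other chromosomes 49.4% of protein-coding genes were lower. Several of the 15 lay near the level limit, such as Trav13-2 (0.735 to 1.25 CPM) and Snora31 (0.57 to 1.2 CPM), so their median is not set against that of the members. Gm10110 (0.25) and Gm4654 (0.27), chosen after their values were seen, were those that were higher.

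To see which line departs from cells of another type, each tumor library was set beside the NFs of gel 1. Over 208 members with at least 1 CPM in both cell types, the median log2 difference from NFs lay between 0.01 and 0.11 for the 13-MCB-17 libraries and between −0.88 and −0.82 for the 10-SJK-221 libraries. Over 10108 genes on other chromosomes it lay between 0.03 and 0.09 for all 4. Relative to other chromosomes the members were thus at −0.02 to 0.08 in 13-MCB-17 and −0.94 to −0.88 in 10-SJK-221. Tumor cells and NFs differ in most genes one by one, the NF libraries come from 1 gel, and the tumor libraries are those that chose the stretch, so these values are a description.

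**Figure D5:**
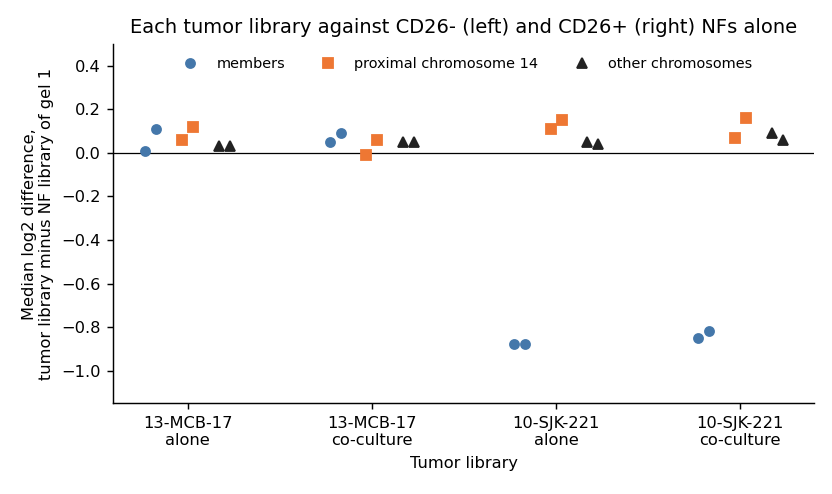
Median log2 difference of each tumor library from the CD26− (left symbol) and CD26+ (right symbol) NF library of gel 1, over 208 members, 136 genes of proximal chromosome 14 and 10108 genes of other chromosomes. The members lie near 0 for both 13-MCB-17 libraries and between −0.88 and −0.82 for both 10-SJK-221 libraries.

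The response of tumor cells to co-culture uses another contrast of the same libraries, and here the members could be tested. All 216 passed the filter on low counts. Of these, 202 had at least 1 CPM in all 4 tumor libraries, 6 only in both libraries of 13-MCB-17, 1 only in both libraries of tumor cells alone and 1 only in both co-culture libraries. With line and culture in the model, 26 members rose (12%) and 25 fell (11.6%), against 10.8% and 11.5% of all 13197 genes. DESeq2 called 1568 genes in all, with 13 members higher and 18 lower. The medians were 0.01 for members and for all genes, so the members' response was close to the background. Adjusted p-values here are from edgeR's quasi-likelihood test. Line and culture are additive in this model, which leaves 1 residual degree of freedom and no test of their interaction.

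Clu (clusterin, a secreted chaperone) rose most, from 87 to 1060 CPM in 13-MCB-17 and from 68.1 to 496 CPM in 10-SJK-221 (log2 fold change 3.21, SE 0.182, adjusted p = 3.37e-05). Bmp1 rose by 1.6 (SE 0.125, adjusted p = 0.00014) and Stc1 by 1.48 (SE 0.297, adjusted p = 0.0092). Fzd3, a Wnt receptor, and Pcdh17, a protocadherin, rose by 1.21 and 1 (adjusted p = 0.00327 and 0.0149). NFs had 461 to 834 CPM of Bmp1 and 31.9 to 300 CPM of Stc1, and the part of NF RNA in the tumor co-culture values was not tested. Clu had 2.79 to 47.4 CPM in NFs, below every tumor library.

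Kctd4 fell most, from 53.7 to 4.3 CPM in 13-MCB-17 and from 26.7 to 7.81 CPM in 10-SJK-221 (log2 fold change −2.7, SE 0.371, adjusted p = 0.00166). Scara5, a ferritin receptor, fell from 170 to 47.9 CPM and from 93.3 to 26.1 CPM (−1.86, SE 0.1, adjusted p = 2.67e-05), so that its line difference was the same in both cultures (−0.95 and −0.94). Gfra2 (log2 fold change −1.77), Esd (−1.33) and Tbc1d4, a regulator of glucose transporter traffic (−1.07), also fell (adjusted p = 0.001, 0.000358 and 0.00165). Without the line in the model, edgeR called no gene, and 14 members had an unadjusted p under 0.05, while DESeq2 called 3 members higher and 3 lower. The changes were then 3.31 for Clu, 1.67 for Bmp1 and −2.78 for Kctd4 in edgeR, so these calls were lost while the changes stayed about as large. A fit of all 10 libraries called 14 members higher and 12 lower, and Pcdh17 passed the threshold neither there nor in DESeq2 (1 and 0.99). Leaving out a tumor library from that fit left 2 or 6 members higher and 1 or 7 lower, where the contrast rests on 1 library against 1 of the line that kept both and its spread is taken from the NF libraries. Without either library of 13-MCB-17 the change of Stc1 was 0.69 and that of Kctd4 −1.78, and of the 10 genes named here Clu and Esd alone passed the threshold. Without either library of 10-SJK-221 the change of Pcdh17 was 0.62, and Pcdh17, Fzd3, Gfra2 and Tbc1d4 did not pass.

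NF libraries were used to ask whether the stretch differs outside tumor cells, since NFs in gel 5 grew beside 10-SJK-221 and NFs in gel 4 beside 13-MCB-17. Of the 216 members, 211 passed the filter in NFs. None was higher or lower in gel 5 in edgeR's quasi-likelihood test with Benjamini-Hochberg adjustment, where 0% of 15013 genes were called in either direction. At an unadjusted p under 0.05, 7 members were higher and 9 lower, against 527 and 420 of all genes, and DESeq2 called 20 genes and no member. A fit of the co-culture NF libraries only called 304 genes, with 1 member higher and 3 lower, and edgeR without a filter called 150 genes, with 1 member higher and 1 lower. The median difference was −0.03 over the members and 0 over all genes. NFs of both gels came from mTmG mice and are cells of neither line. A difference held by the lines themselves could thus not appear in the NFs' own RNA, and nothing on the lines is read from these values. Each gel gave 1 library of each NF subset, and tumor line and gel cannot be told apart here.

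Between co-cultured NFs and NFs alone, 52 members rose (24.6%) and 67 fell (31.8%), against 25.9% and 22.9% of all 15013 genes. The median was −0.13 for the members and 0.02 for all genes. Only 1 gel held NFs alone, so the culture and that gel cannot be told apart. Without gel 5, 40 members fell. Mcpt8 rose most (from 6.21 and 7.79 CPM in CD26− and CD26+ NFs alone to 36.1 and 145 CPM in gel 4 and 42.2 and 231 CPM in gel 5, log2 fold change 3.65, adjusted p = 0.000113 in edgeR's quasi-likelihood test). Abcc4, an exporter of cyclic nucleotides and prostaglandins, Hr, Tgm1 (a transglutaminase of epidermis) and Slc25a37 rose by 2.56, 2.54, 2.41 and 2.28. Hr and Slc25a37 had 122 to 390 CPM in co-cultured 13-MCB-17 cells, and the summed level of epithelial markers was at most 0.435 CPM in the NFs of gel 1 and 74.6 to 232 CPM in those of gels 4 and 5. The part of tumor RNA in these values was not tested.

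Scara5 fell in NFs as in tumor cells, from 29.6 and 34.2 CPM in NFs alone to 1.78 to 8.34 CPM in co-culture (log2 fold change −2.92, adjusted p = 5.48e-05 in edgeR's quasi-likelihood test). Lacc1, an immunometabolic enzyme, Gpc6 (glypican-6), Ift88, a protein of cilium assembly, and Uchl3, a deubiquitinase, fell by 1.93, 1.79, 1.7 and 1.67 on the log2 scale. Ift88 had 10.2 and 12.9 CPM in 13-MCB-17 and 8.02 and 10 CPM in 10-SJK-221, and Uchl3 21.7 to 23.7 CPM against 12.9 to 13.4 CPM.

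Between the NF subsets, 5 members were higher in CD26+ NFs (2.37%) and 10 lower (4.74%), against 3.93% and 3.6% of all 15013 genes. Mcpt8 (1.61), Clu (1.29), Zfp219 (0.89), Spry2 (0.76) and Cdadc1 (0.56) were higher on the log2 scale. Fzd3 (−0.93), Egr3 (−0.79), Slc39a14 (−0.67) and Kctd12 (−0.66) were among the lowest of those that were lower and had at least 5 CPM. Adjusted p-values in edgeR's quasi-likelihood test lay between 0.0208 and 0.0495 for these genes. With gel as a replicate block, 5 members were higher and 13 lower, and Kctd12 no longer passed the threshold. DESeq2 called 6 members higher and 21 lower, without Mcpt8 (1.5). Cdadc1 was not called without a filter (0.54), nor Kctd12 with the other scaling, RLE (−0.65). Without gel 5 no member was called in either direction and the difference of Kctd12 was −0.38. Without gels 1 and 4 in turn 4 and 19 members were lower. Clu (0.91), Zfp219 (0.63), Cdadc1 (0.66), Fzd3 (−0.72), Egr3 (−0.58) and Slc39a14 (−0.55) were not called without gel 1, and Mcpt8 (1.47), Spry2 (0.7), Cdadc1 (0.51) and Kctd12 (−0.7) were not called without gel 4. Exposure to the virus and the subset cannot be told apart.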

How the data were processed

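RNA of 10 libraries from 5 gels was sequenced. The authors deposited raw read counts per gene as 1 table without normalization. Per the labels, libraries were stranded mRNA, and the submitters' processing notes name HISAT2 2.2.1 and GRCm38. The counting program, whether it used strand, and the gene models are not given in the sources used here, so counts of genes with overlapping exons are uncertain. GENCODE M21 held 99.38% of the 55486 gene IDs, 99.35% of these at the same position. A line without an ID held 0 counts. A further conditional allele shared by both tumor lines, and 1 member the naming rule picked, are not reported here.

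Counts were fitted in R 4.3.3 with edgeR 4.0.16 (TMM, filterByExpr, quasi-likelihood F test, Benjamini-Hochberg, threshold 0.05), with line and culture as terms for 4 tumor libraries and with subset and culture, or subset and gel, for 6 NF libraries. All p-values are two-sided. Log2 differences within a culture used TMM-scaled counts with 0.5 added. Scripts were tested on simulated data. Libraries held 14142334 to 18408940 counts, and 3 counts, the limit that a count of 0 allows, equal 0.163 to 0.212 CPM, for counting error only. Exon lengths and overlaps came from GENCODE M21 and promoter windows from RefSeq.

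The members, role lists and tests were chosen with earlier results of these data known. Named were the 6 members with the highest mean in each class, the 5 highest and 5 lowest line differences (mean of at least 5 CPM, same direction in both cultures), role members with at least 20 CPM, and per tested comparison the 5 largest rises and 5 largest falls at 5 CPM or more. Other genes are said to be chosen by place or after their values were seen. The NF subsets of a gel shared that gel, so gel numbers pair them. The deviations of subsets from their group means correlated at 0.846, 0.695 and 0.69 in gels 1, 4 and 5 across 15037 genes, which includes the difference between culture conditions. The differences of gel 5 minus gel 4 in the subsets, free of it, correlated at 0.115. Alternatives were other scalings, no filter, DESeq2 1.42.0, leaving out libraries or gels, and other class limits.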

Additional observations from a re-analysis of the deposited data

Results flagged for a closer look

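Kctd4, a member of the potassium channel tetramerization domain family, differed between the lines in opposite directions in the 2 cultures. The difference of 10-SJK-221 minus 13-MCB-17 was −1.09 on the log2 scale with tumor cells alone (26.7 against 53.7 CPM) and 0.8 in co-culture (7.81 against 4.3 CPM). With 1 library for each line and culture, the change in direction was not tested. In the samples examined no group had 4 or more libraries, so no library could be singled out within a group.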

How the results depend on the processing

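The members' median line difference stayed between −0.979 and −0.868 under every alternative run. It was −0.868 with library totals only, −0.963 over members with at least 10 CPM, −0.979 over members whose span overlaps no other gene and −0.948 in co-culture only. Leaving out a tumor library gave −0.948 to −0.936, but the line difference then rests on the other culture alone. It is thus no check beyond the single cultures. Class counts depended more on the choice. Members with at least 10 CPM, sorted by their own median, gave 3 that exceeded, 10 that escaped and 23 mixed. Members with no overlapping gene gave 66 followers, 12 escapers and 14 mixed. Both sets have fewer members by construction. A single culture has no mixed class, so the cultures gave 21 (alone) and 17 (co-culture) exceeders, 37 escapers alone and 0 mixed. Leaving out a tumor library, which comes down to a single culture, gave 17 to 21 exceeders, 33 to 37 escapers and 0 mixed. Limits of 0.6 and 1.4 times the shift, chosen after seeing the data, gave 19 exceeders. For the line contrast, genes called in all went from 1910 to 2917 without a filter and 945 with DESeq2.

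For the tumor co-culture response, DESeq2 called 1568 genes and 13 members higher. A fit of all 10 libraries called 1511 genes, with 14 members higher and 12 lower, and leaving out a tumor library from it left 216 to 708 genes, 2 to 6 members higher and 1 to 7 lower. Without the line in the model edgeR called 0 genes and 0 members, where 2207 genes had an unadjusted p under 0.05, and DESeq2, added after seeing the data, called 926 genes with 3 members higher and 3 lower. The changes of the named members lay close to those with the line (Clu 3.31, Bmp1 1.67 and Kctd4 −2.78 in edgeR). For gel 5 against gel 4 in NFs, no filter gave 150 genes with 1 member higher and 1 lower, DESeq2 20 genes, and a fit of the co-culture libraries only 304 genes with 1 member higher and 3 lower. For co-culture in NFs, leaving out gel 4 or 5 gave 40 to 55 members lower. For the NF subsets, DESeq2 called 21 members lower, and leaving out a gel left 17 to 1299 genes, 0 to 4 members higher and 0 to 19 lower, the lowest without gel 5. With gel as a replicate block 1331 genes, 5 members higher and 13 lower were called, and Kctd12 (−0.65) was the only named member lost. The causes were not tested. Depth limits what can be said of exceeders and escapers with few counts.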

Other observations

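Outside chromosome 14, the window of the first 10 Mb of chromosome 6 differed most between the lines, in the opposite direction. Its 19 protein-coding genes at the same level had a median difference of 1.91 (10-SJK-221 minus 13-MCB-17, log2), and 18 of them were higher in 10-SJK-221. Asns (asparagine synthetase, start 7675169) had 223 and 129 CPM in 13-MCB-17 (alone and co-culture) and 616 and 709 CPM in 10-SJK-221. Sem1, a small subunit of the proteasome (start 6557294), had 148 and 127 CPM against 539 and 533 CPM, and C1galt1, which extends O-linked glycans (start 7844842), had 137 and 115 CPM against 489 and 688 CPM. In all 3 genes the lines did not overlap. Ppp1r9a, which differed by −0.63, was the exception. The next window of chromosome 6 had a median of −0.01 over 15 genes. The genes of this window were looked at after their values were seen, and the contrast is given without a test.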
